A study of Mus musculus with 8 samples.

Results

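The 10 genes described here encode proteins of heart and striated muscle that were nonetheless read in RNA of whole mouse lung: Myh6, Myl7, Actc1, Nppa, Tnnt2, Myl4, Acta1, Ckm, Tnnt3 and Mylpf. They were taken by name from a table of 25965 genes, and all 10 passed the filter on low values that left 15627 genes for testing. The lungs came from mice before birth, at embryonic stage E18.5, and after it, at postnatal stage P1.5. At each stage Wfdc2 GFP/GFP animals, in which a GFP cassette replaces part of exon 1 and the whole of exon 2 of the secreted protease inhibitor gene Wfdc2 in every cell, were compared with Wfdc2 +/+ littermates, with 2 libraries in each of 4 groups. The knock-in line was made in TT2 embryonic stem cells, the selection cassette was removed with CAG-Cre, and whether a library held 1 lung or several is not given in the sources used here.

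Cardiac muscle is found in the lung of the mouse because the myocardium of the left atrium extends along the pulmonary veins as a sleeve of beating muscle. This sleeve uses the atrial set of sarcomere proteins, in which the regulatory light chain Myl7 and the essential light chain Myl4 take the place of the ventricular light chains Myl2 and Myl3. Skeletal muscle is not part of the lung, but the diaphragm, the chest wall and the muscle coat of the oesophagus lie next to it and use their own actin, light chains and troponins.

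The 8 libraries held 19457647 to 37209333 reads, so that 3 reads, taken as the limit of detection, stood for 0.0806 to 0.154 RPM, that is, reads divided by the total of the library and scaled to 1e6. Wfdc2 had 8038 to 32845 reads in the 4 Wfdc2 +/+ libraries and 0 to 12 in the 4 Wfdc2 GFP/GFP libraries, as the labels say. The lung epithelial genes Sftpc, with 239772 reads or more, and Nkx2-1, with 2857 or more, were high in all 8 libraries. In every group replicate 1 held the reads of Xist, transcribed from the inactive X chromosome, and replicate 2 those of the Y-linked gene Ddx3y, so the replicates of a group differed in sex and came from different animals. P1.5 Wfdc2 +/+ replicate 2 stood apart in holding several genes of oesophagus and liver, whose values are given beside the skeletal genes. P1.5 Wfdc2 +/+ replicate 1 stood apart in smooth muscle genes, whose summed level was 489 RPM there and 989 RPM or more elsewhere. Of these Acta2 was at 35.2 RPM there and at 206.5 RPM or more elsewhere.

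Each of the 2 actins and the light chain Myl7 has a CArG box, the 10-base motif bound by serum response factor, in its promoter as annotated by RefSeq. The 150 bases before the annotated start are shown for these genes and for Myl4, the member most like Myl7 in level, whose promoter has none. Capitals mark the CArG box, and all sequences run 5′ to 3′ on the strand of the gene in build GRCm38.p6, which is mm10.
Myl7, chr11:5898783-5898932, minus strand: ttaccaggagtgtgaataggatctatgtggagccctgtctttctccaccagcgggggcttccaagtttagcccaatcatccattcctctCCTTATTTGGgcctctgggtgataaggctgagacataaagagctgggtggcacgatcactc
Actc1, chr2:114052876-114053025, minus strand: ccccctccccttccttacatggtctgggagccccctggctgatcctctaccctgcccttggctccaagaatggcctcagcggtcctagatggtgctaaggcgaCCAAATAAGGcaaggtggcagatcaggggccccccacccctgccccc
Acta1, chr8:123894776-123894925, minus strand: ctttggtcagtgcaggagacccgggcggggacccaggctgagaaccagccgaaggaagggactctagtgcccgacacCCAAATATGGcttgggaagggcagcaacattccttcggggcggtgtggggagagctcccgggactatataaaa
Myl4, chr11:104550513-104550662, plus strand: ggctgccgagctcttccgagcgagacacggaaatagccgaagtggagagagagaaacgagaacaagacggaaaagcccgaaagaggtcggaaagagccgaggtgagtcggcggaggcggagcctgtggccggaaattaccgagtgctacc

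The full promoters of the table, from 250 bases before to 50 after the start, were found for 9 of the 10 members. A CArG box on either strand was found in 3 of these 9 and in 1.63% of all 32851 promoters, the MEF2 motif in 0 of 9 and in 1.86%, TATAAA on either strand in 4 of 9 and in 13.6%, and CAGCTG, which reads the same on both strands, in 5 of 9 and in 16.3%. A match in letters is not a measured binding site. The 3 genes with a CArG box did not share 1 pattern of levels, as given below.

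Myl7 (chr11:5896637-5898782, minus strand), the atrial regulatory light chain, had reads in all 8 libraries. At E18.5 it was at 60.6 and 30.7 RPM in the Wfdc2 +/+ libraries and at 36.5 and 125 RPM in the Wfdc2 GFP/GFP libraries. At P1.5 it was at 178 and 78.4 RPM in Wfdc2 +/+ and at 179 and 220 RPM in Wfdc2 GFP/GFP. The P1.5 libraries were higher than the E18.5 libraries except that P1.5 Wfdc2 +/+ replicate 2 lay below E18.5 Wfdc2 GFP/GFP replicate 2. Per kilobase of annotated exon Myl7 was the most abundant member in each of the 8 libraries, at 52.0 to 373 RPM per kilobase.

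Myl4 (chr11:104550663-104595753, plus strand), the atrial essential light chain, followed Myl7. It was at 51.6 and 28.5 RPM in E18.5 Wfdc2 +/+, at 25.9 and 103 RPM in E18.5 Wfdc2 GFP/GFP, at 157 and 77.4 RPM in P1.5 Wfdc2 +/+ and at 144 and 192 RPM in P1.5 Wfdc2 GFP/GFP. Within a library there were 0.707 to 0.987 reads of Myl4 per read of Myl7, a range of 1.4-fold while Myl7 itself varied 7.17-fold between libraries. The lowest ratio, that of E18.5 Wfdc2 GFP/GFP replicate 1 at 0.707 (95% exact interval 0.651 to 0.769), and the highest, that of P1.5 Wfdc2 +/+ replicate 2 at 0.987 (0.918 to 1.06), differed beyond counting error, which is all that these intervals cover.

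Tnnt2 (chr1:135836386-135852260, plus strand), the cardiac troponin T that anchors the troponin complex on the thin filament, had the same order of stages. It was at 36 and 21.4 RPM in E18.5 Wfdc2 +/+, at 37.7 and 127 RPM in E18.5 Wfdc2 GFP/GFP, at 220 and 60.7 RPM in P1.5 Wfdc2 +/+ and at 137 and 188 RPM in P1.5 Wfdc2 GFP/GFP. There were 0.593 to 1.24 reads of Tnnt2 per read of Myl7, a range of 2.09-fold. Both E18.5 Wfdc2 +/+ libraries were below all others for Tnnt2.

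**Figure D1:**
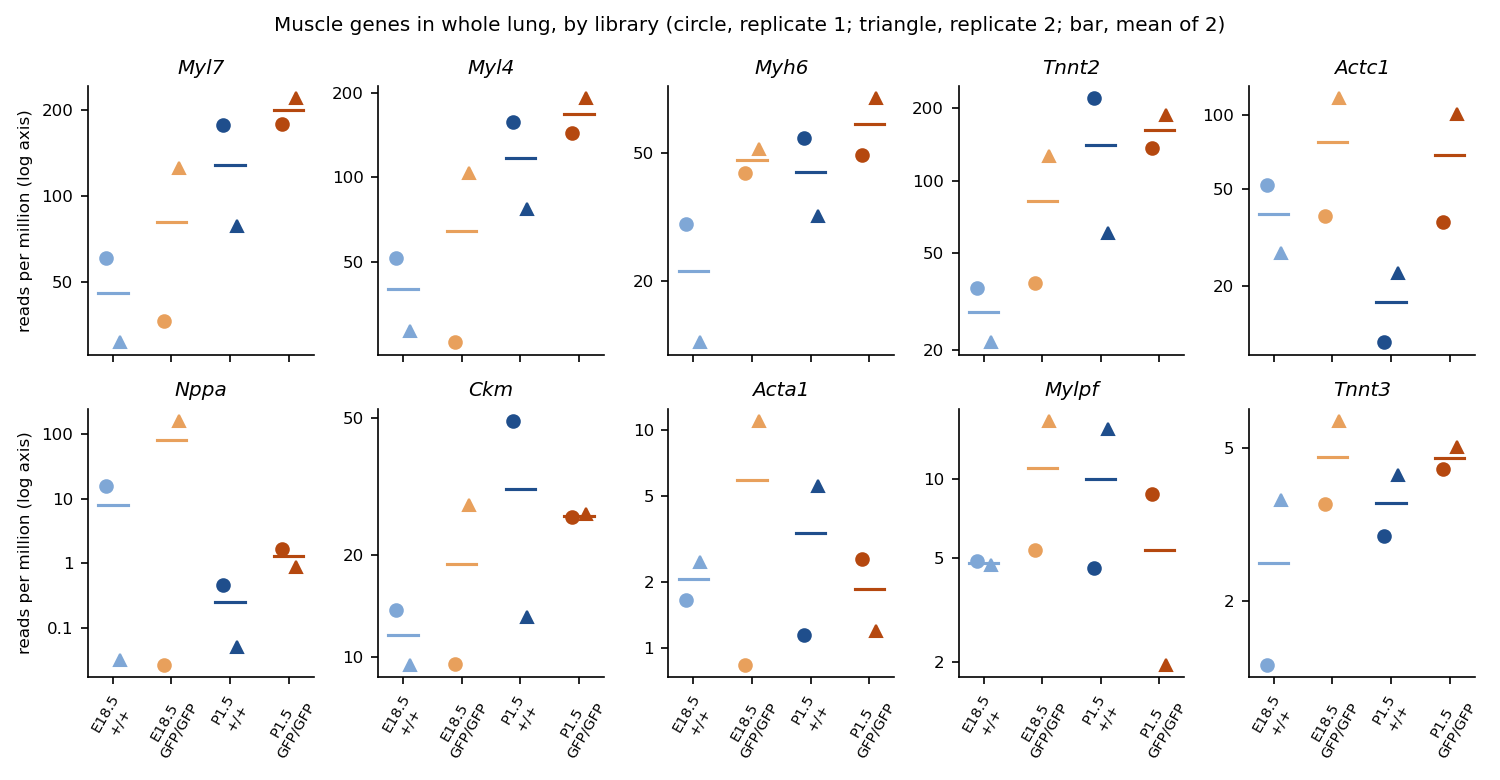
RPM on a log axis for the 10 genes in the 8 libraries, grouped by stage and genotype, with circles for replicate 1, triangles for replicate 2 and bars for the mean of the 2. Myl7, Myl4 and Tnnt2 share 1 pattern, Nppa spans from 0.0269 to 159 RPM, and Acta1 and Mylpf are highest in E18.5 Wfdc2 GFP/GFP replicate 2 and P1.5 Wfdc2 +/+ replicate 2.

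Myh6 (chr14:54941921-54966927, minus strand), the alpha myosin heavy chain that drives contraction in the atria, varied less, 5.72-fold between the lowest and the highest library. It was at 30.0 and 12.9 RPM in E18.5 Wfdc2 +/+, at 43.4 and 51.5 RPM in E18.5 Wfdc2 GFP/GFP, at 55.5 and 31.8 RPM in P1.5 Wfdc2 +/+ and at 49.2 and 73.8 RPM in P1.5 Wfdc2 GFP/GFP. Of the 36-base stretches of its longest transcript, 29.3% also occur in Myh7, the beta heavy chain of ventricle and slow skeletal muscle, so reads of these 2 genes could be exchanged in counting. Myh7 did not follow Myh6, being at 55.0 to 85.2 RPM at E18.5 and at 27.0 to 47.5 RPM at P1.5. There were 1.19 reads of Myh6 per read of Myl7 in E18.5 Wfdc2 GFP/GFP replicate 1, where Myh7 was highest, and 0.276 to 0.494 elsewhere.

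Actc1 (chr2:114047282-114053548, minus strand), the cardiac alpha actin of the thin filament, differed from the light chains in its levels by stage. It was at 51.6 and 27.2 RPM in E18.5 Wfdc2 +/+, at 38.6 and 117 RPM in E18.5 Wfdc2 GFP/GFP, at 11.8 and 22.5 RPM in P1.5 Wfdc2 +/+ and at 36.4 and 101 RPM in P1.5 Wfdc2 GFP/GFP. Against Myl7 it was at 0.852 to 1.06 reads per read in the 4 E18.5 libraries and at 0.0664 to 0.459 in the 4 P1.5 libraries, with no overlap. This ratio was singled out after its values were seen and is given without a test. Actc1 itself was not called for stage, at a log2 fold change of -0.68 ± 0.49 (limma adjusted p = 0.304). The overlapping antisense gene A530058N18Rik had 7 to 49 reads, against 256 or more of Actc1.

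Nppa (chr4:148000722-148002079, plus strand), which encodes atrial natriuretic peptide, the hormone released by stretched atrial muscle, differed most between replicates. At E18.5 it had 542 reads and 1 read in the Wfdc2 +/+ libraries and 1 read and 4661 reads in the Wfdc2 GFP/GFP libraries. At P1.5 it had 10 reads and 1 read in Wfdc2 +/+ and 39 and 26 reads in Wfdc2 GFP/GFP. Each genotype thus had 1 high and 1 nearly empty library at E18.5, while Myl7 had 956 to 3663 reads in those 4 libraries.

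The ratio of Nppa to Myl7 was highest in E18.5 Wfdc2 GFP/GFP replicate 2, at 1.27 (95% exact interval 1.22 to 1.33), and 0.26 (0.236 to 0.285) in E18.5 Wfdc2 +/+ replicate 1. In the other 6 libraries the ratio was 0.00943 or lower. The related peptide gene Nppb, a marker of ventricle and of loaded myocardium, was read in the same 2 libraries only, with 166 and 12 reads, and had 0 in the other 6, which allows up to 3 reads. Ankrd1, a nuclear and sarcomeric protein that responds to load, was also highest in E18.5 Wfdc2 GFP/GFP replicate 2, at 32.1 RPM against 2.60 to 9.88 RPM elsewhere. The gene Gm13054 lies antisense to Nppa and covers 55.9% of its 36-base stretches, but had 2 to 22 reads in every library.

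**Figure D2:**
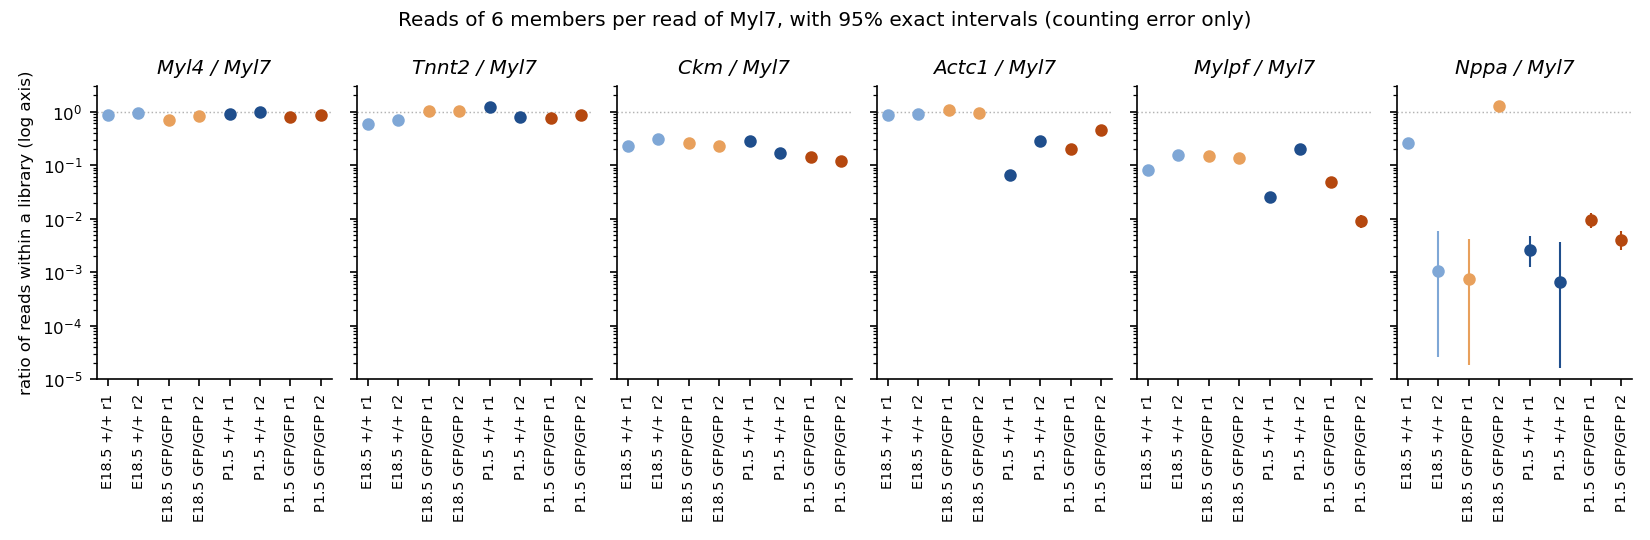
Reads of 6 of the genes per read of Myl7 in each of the 8 libraries, on a log axis, with 95% exact intervals that cover counting error only. Myl4 stays between 0.707 and 0.987 and Tnnt2 between 0.593 and 1.24, Actc1 is lower in all 4 P1.5 libraries, and Nppa is high in 2 E18.5 libraries.

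The ventricular light chains were low. Myl2 had 8 to 107 reads, 0.00389 to 0.0228 per read of Myl7, and Myl3 had 0.0316 to 0.0995 per read of Myl7. Irx4, a transcription factor of ventricle, was listed at 0 reads in all 8 libraries, which allows up to 3 reads in each. The summed level of the 6 ventricular genes was 47.3 to 93.6 RPM, of which Myh7 gave 27.0 to 85.2 RPM. Of the atrial and pulmonary vein list, Sln, a calcium pump regulator of atrial muscle, had 59 to 355 reads, and Nkx2-5, the cardiac transcription factor, 3 to 35 reads. Bmp10, a ligand of the right atrium, had 2 and 3 reads in E18.5 Wfdc2 +/+ replicate 1 and E18.5 Wfdc2 GFP/GFP replicate 2 and 0 in the other 6.

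Of the members assigned to skeletal muscle, Ckm (chr7:19411094-19421583, plus strand), the muscle creatine kinase that heart also uses, followed the cardiac genes. It was at 13.7 and 9.5 RPM in E18.5 Wfdc2 +/+, at 9.57 and 28.0 RPM in E18.5 Wfdc2 GFP/GFP, at 49.1 and 13.2 RPM in P1.5 Wfdc2 +/+ and at 25.7 and 26.2 RPM in P1.5 Wfdc2 GFP/GFP. It was at 0.119 to 0.31 reads per read of Myl7, a range of 2.61-fold, and at 2.37 to 42.7 reads per read of Acta1, a range of 18-fold.

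Acta1 (chr8:123891767-123894736, minus strand), the skeletal alpha actin, was the least abundant member per kilobase of exon in the mean of the 8 libraries. It had 57 and 77 reads in E18.5 Wfdc2 +/+, 31 and 322 in E18.5 Wfdc2 GFP/GFP, 25 and 108 in P1.5 Wfdc2 +/+ and 59 and 35 in P1.5 Wfdc2 GFP/GFP. The highest libraries were E18.5 Wfdc2 GFP/GFP replicate 2, at 11 RPM, and P1.5 Wfdc2 +/+ replicate 2, at 5.55 RPM, and the other 6 were at 0.833 to 2.55 RPM. Acta1 was at 0.0118 to 0.247 reads per read of Actc1, its cardiac counterpart. It shares 3.33% of its 36-base stretches with the cytoplasmic actin Actb. A predicted gene model on the opposite strand, Gm20388, overlaps it and had 65479 reads or more in every library. The low counts of Acta1 are uncertain if strand was not used in counting, which was not tested. Antisense to Nppa, Gm13054 had 11 reads in E18.5 Wfdc2 GFP/GFP replicate 2, beside 4661 of Nppa. Antisense to Ckm, A930016O22Rik had 1 to 9 reads, beside 256 or more of Ckm.

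Mylpf (chr7:127211608-127214298, plus strand), the regulatory light chain of fast skeletal fibres, had the same highest 2 libraries. It was at 4.85 and 4.72 RPM in E18.5 Wfdc2 +/+, at 5.35 and 16.7 RPM in E18.5 Wfdc2 GFP/GFP, at 4.56 and 15.5 RPM in P1.5 Wfdc2 +/+ and at 8.76 and 1.95 RPM in P1.5 Wfdc2 GFP/GFP. Mylpf was at 1.51 to 6.42 reads per read of Acta1. Tnnt3 (chr7:142498836-142516009, plus strand), the fast skeletal troponin T, varied least of all members, 4.31-fold, from 47 reads or 1.37 RPM in E18.5 Wfdc2 +/+ replicate 1 to 172 reads or 5.88 RPM in E18.5 Wfdc2 GFP/GFP replicate 2.

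Genes of immature skeletal muscle were read most in the libraries in which Acta1 and Mylpf were high. Myh3, the embryonic myosin heavy chain, had 255 reads in E18.5 Wfdc2 GFP/GFP replicate 2, 118 in P1.5 Wfdc2 +/+ replicate 2, 100 in E18.5 Wfdc2 +/+ replicate 2 and 2 to 39 in the other 5. Myog, the transcription factor of differentiating myoblasts, had 51 and 28 reads in the former 2 libraries, 19 in P1.5 Wfdc2 GFP/GFP replicate 1, 16 in E18.5 Wfdc2 +/+ replicate 2, 1 in E18.5 Wfdc2 GFP/GFP replicate 1 and 0 in the other 3. Not all skeletal genes were highest in these libraries. Tnni2, at 3.68 RPM, and Actn3, at 5.02 RPM, were highest in P1.5 Wfdc2 +/+ replicate 1. Mybpc2, at 2.96 RPM, was highest in E18.5 Wfdc2 +/+ replicate 1. Adult fast heavy chains were near 0, with at most 3 reads of Myh1, Myh2 or Myh4 in any library. The summed level of the 33 skeletal genes found was highest in E18.5 Wfdc2 GFP/GFP replicate 2, at 209 RPM, and was 67.6 to 180 RPM in the other 7, a sum that includes Ckm and 3 other members.

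Markers of neighbouring tissues did not all lie in the same libraries as the muscle genes. Krt13 and Krt4, keratins of the oesophageal lining, had 1092 and 930 reads in P1.5 Wfdc2 +/+ replicate 2 and at most 57 and 114 elsewhere. In that library the liver genes Alb, encoding serum albumin, and Ahsg, encoding fetuin-A, had 1030 and 523 reads, against at most 55 and 26 elsewhere. The summed oesophageal list was at 116 RPM there and at 3.74 to 11.9 RPM in the other 7 libraries, with 1 of 8 genes at 0 reads there. Not every gene of these lists was particular to that library. Apoa1, of the liver list, had 213 reads in it and 139 in P1.5 Wfdc2 +/+ replicate 1, and Trim29, of the oesophageal list, 115 and 107. E18.5 Wfdc2 GFP/GFP replicate 2, the library with the most Nppa, Acta1 and Mylpf, had 19 reads of Krt13 and 55 of Alb. Ucp1, of brown fat, had 168 reads in P1.5 Wfdc2 GFP/GFP replicate 2, 6 in E18.5 Wfdc2 +/+ replicate 2 and 0 in the other 6. The part of these neighbouring tissues in the levels of the members was not tested.

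**Figure D3:**
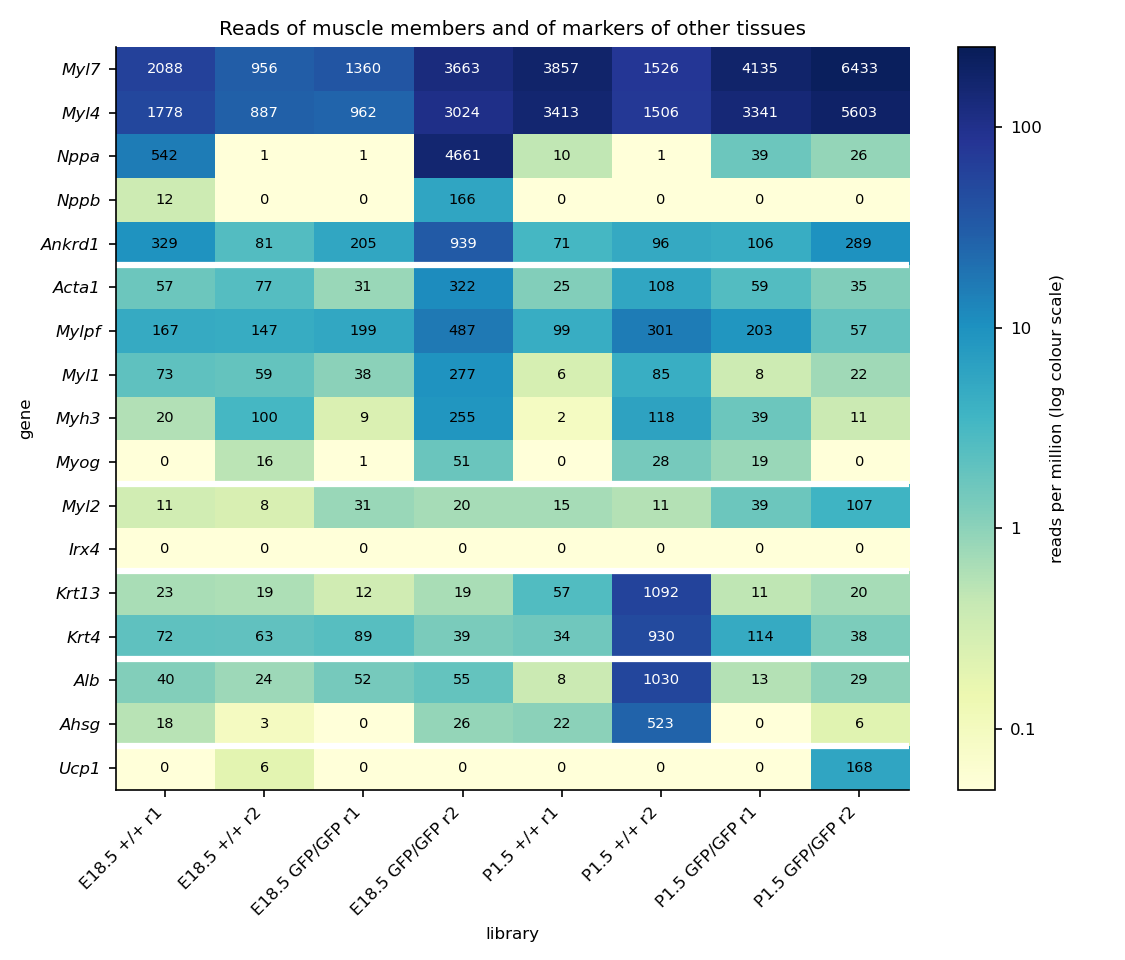
Reads of muscle genes and of markers of other tissues in each of the 8 libraries, printed in the cells, with colour for RPM on a log scale and levels under 0.05 RPM drawn as 0.05. Of the skeletal list only Acta1, Mylpf, Myl1, Myh3 and Myog are shown, and other genes of it are highest elsewhere. Those shown have their most RPM in E18.5 Wfdc2 GFP/GFP replicate 2 and next in P1.5 Wfdc2 +/+ replicate 2. The keratins and liver genes have theirs in the latter library.

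Summed levels of the remaining lists ran from 489 to 1550 RPM for smooth muscle, from 332 to 2110 RPM for mesothelium and epicardium, from 296 to 1040 RPM for liver, which was mostly Trf, from 11.1 to 49.2 RPM for thymus, from 8.17 to 104 RPM for brown fat, which was mostly Fabp4, from 16.1 to 63.7 RPM for cartilage and from 0.511 to 5.2 RPM for thyroid. The 2 lists of cardiac genes ran from 406 to 760 RPM for the atrial list and from 176 to 871 RPM for the 30 genes shared by all heart muscle. The atrial list includes Tbx5, Gja5, Dkk3 and Nr2f2, which lung mesenchyme and vessels also express.

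Over the 8 libraries the members fell into sets when their log2 RPKM values were correlated, which is given as a description since the points share libraries, stage and genotype. Myl7, Myl4, Tnnt2 and Ckm had Pearson's r of 0.89 to 0.99 among themselves (6 pairs, Spearman's rho 0.79 to 0.95). Acta1 and Mylpf had r of 0.83 with each other, and -0.08 to 0.13 with the former set. Myh6 was nearest to Tnnt2, with r of 0.86, and Actc1 to Nppa, with r of 0.61.

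The genes outside the 10 with the highest r to Myl7 were Tnnc1 (0.978), Tnni3 (0.973), Csrp3 (0.973), Vps37d, Myoz2, Sertad3, Comtd1, Zfp688, Cgref1 and Trpv6 (0.954). Tnnc1 and Tnni3 encode the calcium-binding and inhibitory troponins of heart, and Csrp3 and Myoz2 proteins of the Z-disc. Those with the highest r to Acta1 were Impdh2 (0.972), Irf2bp2, Tysnd1, Gps2, Coro1b, Spint1, Gm12923, Optc, Cbr1 and Gipc1 (0.916), none of them in the lists of muscle genes, with Myh3 at rank 13 and Myog at rank 20.

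**Figure D4:**
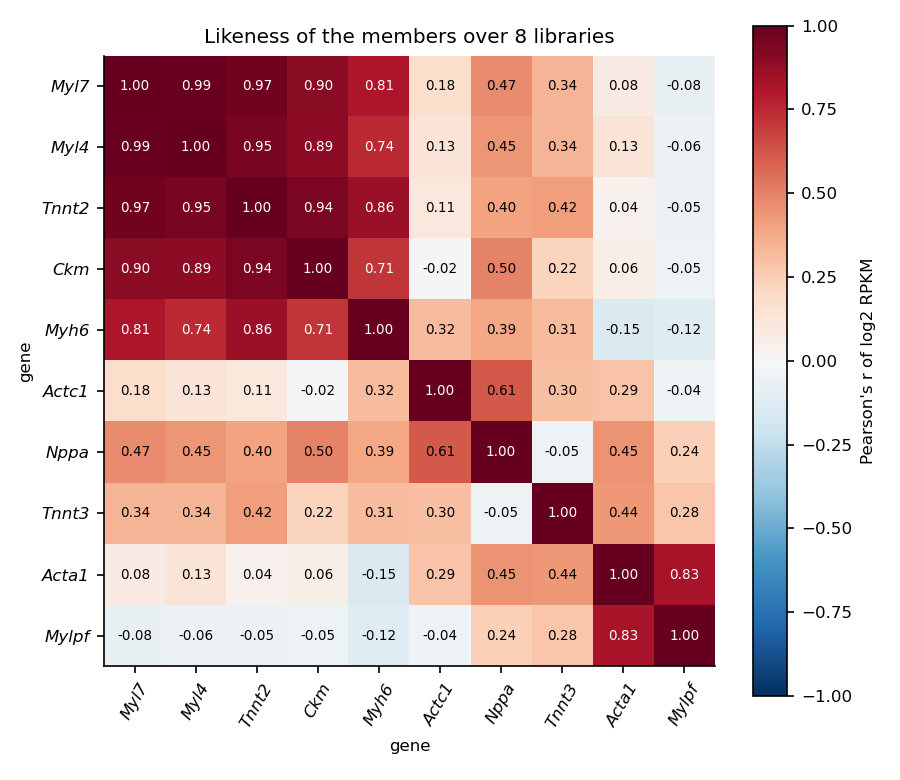
Pearson's r of log2 RPKM over 8 libraries for each pair of the 10 genes, from -1 in blue to 1 in red. Myl7, Myl4, Tnnt2 and Ckm form 1 block at 0.89 to 0.99, and Acta1 and Mylpf another at 0.83.

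The comparison of genotypes asked whether the loss of Wfdc2 changed these genes before or after birth. At E18.5 all 10 members had a higher mean in Wfdc2 GFP/GFP, with a median log2 fold change of 0.91 against 0.09 over all tested genes, but none passed the test (limma on log2 RPKM, Benjamini-Hochberg adjusted p of 1 for all 10). At this threshold 0.0192% of all tested genes were called. With limma's voom on the recovered reads 0 members were called as well. By limma 683 of all 15627 tested genes had an unadjusted p under 0.05. The unadjusted p was under 0.05 for 1 member, Myh6, at a log2 fold change of 1.27 ± 0.49 (SE, 2 libraries against 2, limma adjusted p = 1, unadjusted p = 0.0334). Myh6, Tnnt2, at 1.32 ± 0.73, and Mylpf, at 0.98 ± 0.86, were higher in both Wfdc2 GFP/GFP libraries than in both Wfdc2 +/+ libraries, 3 of 10 members in either direction against 36% of all tested genes. Of all 15627 tested genes, 4143 were higher without overlap and 1478 lower.

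Several of these E18.5 differences depended on E18.5 Wfdc2 GFP/GFP replicate 2. Without it the median of the members was -0.1, and the log2 fold changes were -0.24 for Myl7, -0.57 for Myl4, -1.28 for Acta1 and -4.72 for Nppa, the last against 1.54 ± 4 with all libraries. Myh6 lay between 0.66 and 1.87 and Tnnt2 between 0.44 and 2.19 in the fits that left out 1 library. In E18.5 Wfdc2 GFP/GFP replicate 1 Myh6 was above both Wfdc2 +/+ libraries, while Myl7 and Myl4 were not.

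At P1.5 8 of the 10 members had a higher mean in Wfdc2 GFP/GFP, with a median log2 fold change of 0.50 against -0.2 over all tested genes, and again none passed the test, or that of voom, while 0.0128% of all tested genes were called. The unadjusted p was under 0.05 for 1710 of all 15627 tested genes and for 1 member. That member was Actc1, at a log2 fold change of 1.89 ± 0.69 (SE, 2 against 2, limma adjusted p = 0.388, unadjusted p = 0.026), and it lay between 1.16 and 2.63 when libraries were left out in turn. Acta1 was at -0.53 ± 1.19 and Mylpf at -1.02 ± 0.86. Actc1, Myl7, Nppa and Tnnt3 did not overlap between genotypes, all higher in Wfdc2 GFP/GFP, which makes 4 of 10 against 39.4% of all tested genes in either direction. Of all 15627 tested genes, 1966 were higher without overlap and 4196 lower. With 2 libraries in each group, the smallest p that exact permutation allows is 0.33.

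Without P1.5 Wfdc2 +/+ replicate 2, the library with keratins and liver genes, the members' median at P1.5 was 0.14, against 0.1 over all tested genes, and without P1.5 Wfdc2 +/+ replicate 1 it was 1.04. Without replicate 2 Tnnt2 was at -0.45, Ckm at -0.92 and Acta1 at 0.6, each with the sign opposite to that with all libraries. The test of the difference between the genotype effects at P1.5 and E18.5 called none of the members and 0% of all tested genes (1599 genes at an unadjusted p under 0.05, 0 of them members), with a median of -0.56 over the members and -0.33 over all genes.

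The comparison of stages, P1.5 minus E18.5 over both genotypes, gave the largest differences of Myl7, Myl4 and Tnnt2 relative to their errors. Myl4 was at a log2 fold change of 1.6 ± 0.48 (SE, 4 libraries against 4, limma adjusted p = 0.0653), Myl7 at 1.5 ± 0.46 (adjusted p = 0.0687) and Tnnt2 at 1.64 ± 0.52 (adjusted p = 0.0705), each just short of the threshold. These correspond to 3.04-fold, 2.83-fold and 3.11-fold higher levels. Ckm was at 0.91 ± 0.49 and Myh6 at 0.72 ± 0.35, while Actc1 was at -0.68 ± 0.49 and Nppa at -1.48 ± 2.83. Acta1, at -0.24 ± 0.84, and Mylpf, at -0.19 ± 0.61, were near 0 and on the other side of 0 when libraries were centred or quantile normalized.

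None of the 10 members passed this test or that of voom. An unadjusted p under 0.05 was found for 3 of them and for 6092 of all 15627 tested genes. By limma 5.14% of all tested genes were called for stage, and no member was without overlap between stages, against 20.9% of all tested genes. The members' median was 0.54, and that of all tested genes -0.32, so relative to the typical gene each value stands higher by that shift, which puts Acta1 and Mylpf above 0. With the replicate number, which went with sex in every group, as a block, Myl7 (limma adjusted p = 0.0388), Myl4 (adjusted p = 0.0329) and Tnnt2 (adjusted p = 0.0346) passed the test. This block called 1521 of all 15627 tested genes higher and 3469 lower, against 403 and 400 in the main fit. Without E18.5 Wfdc2 GFP/GFP replicate 2 the log2 fold changes were 1.95 for Myl7, 2.1 for Myl4 and 2.07 for Tnnt2. Without P1.5 Wfdc2 +/+ replicate 2 that of Ckm was 1.39. For these 4 genes the 2 libraries are the highest at E18.5 and the lowest at P1.5, so leaving either out widens the difference by construction. More cells of a type and more RNA per cell cannot be told apart in RNA of whole lung.

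**Figure D5:**
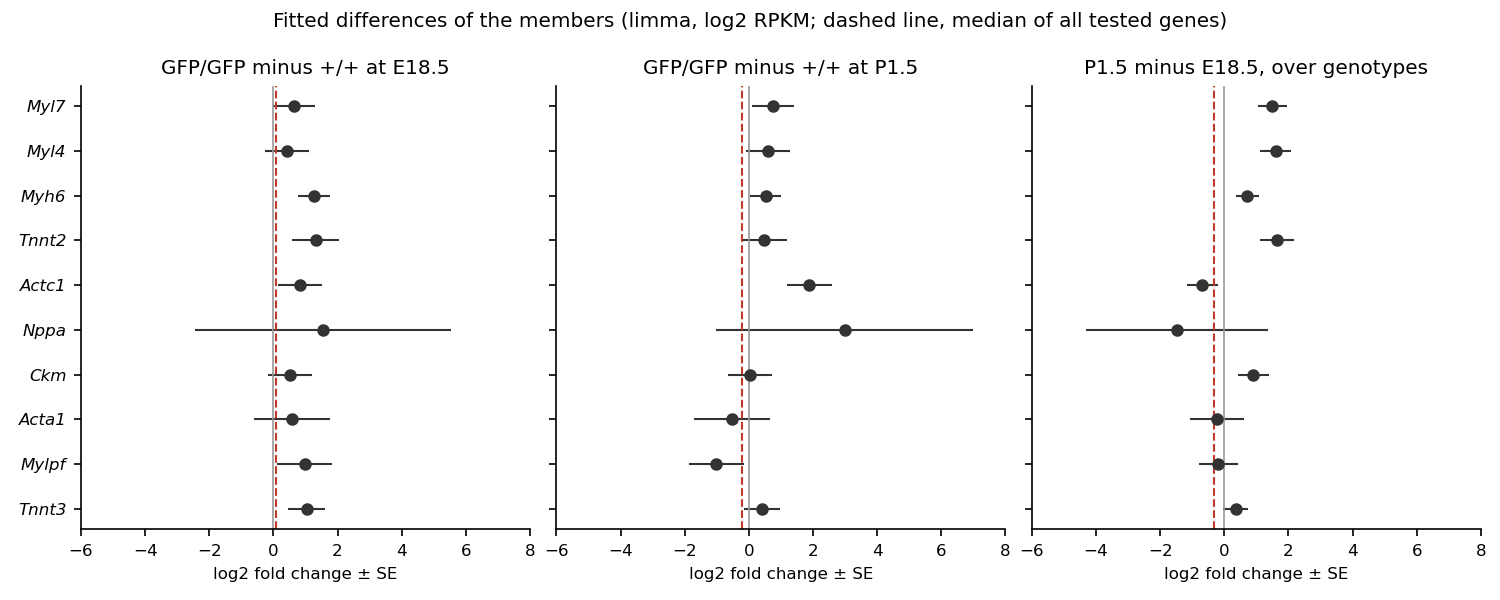
Log2 fold changes with standard errors from limma for the 10 genes, for genotype at E18.5, genotype at P1.5 and stage, with a dashed line at the median of all tested genes. Myl7, Myl4 and Tnnt2 lie at 1.5 to 1.64 for stage, and the bars of Nppa span several units in each panel.

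Other genes of heart muscle did not all move 1 way with stage. Of the 30 genes shared by all heart muscle 23 were tested, of which 4 were called higher at P1.5 and 0 lower. The median log2 fold change was 0.74, with 16 genes above 0 and 7 below. Ryr2, of this list but under the filter, was at 27.1 to 40.3 RPM at E18.5 and at 5.8 to 12.9 RPM at P1.5. Fabp3, the fatty acid binding protein of muscle, rose by 2.3 ± 0.31 (SE, 4 against 4, limma adjusted p = 0.016), from 5.13 to 10.9 RPM at E18.5 to 23.3 to 45.1 RPM at P1.5. Cox8b, a muscle subunit of cytochrome c oxidase, rose by 3.04 ± 0.49 (limma adjusted p = 0.0258), from 0.457 to 1.20 RPM at E18.5 to 2.67 to 9.62 RPM at P1.5. Brown fat also expresses both genes. Tnni3, the cardiac inhibitory troponin, rose by 1.99 ± 0.43 (limma adjusted p = 0.0442). Tnnc1, the troponin C of heart and slow muscle, rose by 2.14 ± 0.49 (limma adjusted p = 0.0494), but was not called with voom (limma adjusted p = 0.0502). These 2 overlapped between stages only where P1.5 Wfdc2 +/+ replicate 2 lay below E18.5 Wfdc2 GFP/GFP replicate 2. The calls of Fabp3, Cox8b, Tnni3 and Tnnc1 were lost in 5, 5, 6 and 6 of the 8 fits that left out 1 library. In these fits the count of 4 rose or fell together with the number called over all tested genes.

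The calls of the other lists for stage are to be read against the 5.14% called over all tested genes. None of 9 atrial genes and none of 5 ventricular genes passed the test. Of them 4 and 3 had an unadjusted p under 0.05, as had 6092 of all 15627 tested genes. Myl3 was at 1.95 ± 0.53 (limma adjusted p = 0.0589) and Myh7 at -0.86 ± 0.25 (limma adjusted p = 0.0637). Of 16 skeletal genes Eno3, the muscle enolase, was called higher, at 1.22 ± 0.24 (limma adjusted p = 0.0402). One gene each was called higher in smooth muscle (Tagln, of 10), oesophageal epithelium (Trim29, of 6), thymus (Rag2, of 2) and liver (Apoa1, of 6), 1 lower in cartilage (Sox9, of 4), and none in brown fat (3 tested) or in mesothelium and epicardium (5 tested), while no thyroid gene could be tested. The calls of Eno3, Tagln, Trim29, Sox9 and Apoa1 were lost in 6, 5, 6, 5 and 3 of the 8 fits that left out 1 library, and that of Rag2 in 6 of these fits and with voom (limma adjusted p = 0.0546). No gene of any list was called by limma between genotypes, with an unadjusted p under 0.05 for 6 genes at E18.5 and 12 at P1.5. Over all 15627 tested genes it was under 0.05 for 683 at E18.5 and 1710 at P1.5.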

How the data were processed

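Total lung RNA was sequenced from directional libraries. The authors cut reads to 36 nt, trimmed them with Trim Galore 0.4.0, mapped them to mm10 with TopHat2 2.1.1 guided by mRNA coordinates, and counted them in SeqMonk, and whether counting used strand is not given in the sources used here. The deposited values are log2 RPKM for 25965 genes, 1 column per library. Gene length here includes introns, and 0.9 read stands where there were none.

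Whole reads were recovered from the steps of the values (99.86% to 99.97% whole within 0.02 of a read). Positions are those deposited, and 6 of the 10 members have the same ends in GENCODE M21, whose exons gave levels per kilobase. Groups were read from the labels. The 15627 genes that averaged 0.05 RPKM or more were fitted in R 4.3.3 using limma 3.58.1, with 4 group means, 4 residual degrees of freedom, a trend in the prior spread, two-sided p and a Benjamini-Hochberg threshold of 0.05. Fold changes are on the log2 scale as deposited, with no pseudocount added. The fit was tested only on simulated data with changes larger than any fitted for the members, which does not show how it finds smaller ones. Python 3.11.15 with pandas 2.3.3, numpy 2.4.6, scipy 1.17.1 and matplotlib 3.10.9 served for the rest.

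The members and the 12 marker lists (142 genes, 139 found) were chosen with earlier results of these data known. Named genes are the members, genes of a list called in a contrast or the most abundant ones, the 10 genes most like Myl7 and Acta1, and others chosen after their values were seen. Nothing says that libraries came from separate litters, and p-values measure the spread between these libraries. Alternatives were pseudocounts of 0.1 and 1 RPKM, a filter at 0.5 RPKM or none, centring on medians, quantile normalization, voom on recovered reads, each stage alone, a replicate block and leaving out libraries. Promoters are from RefSeq.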

Additional observations from a re-analysis of the deposited data

How the results depend on the processing

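No member was called under most settings. For stage, 3 members were called with a mean of at least 0.5 RPKM, where 741 of 9422 tested genes were called higher and 943 lower. With a replicate block 3 members were called, beside 1521 of 15627 tested genes higher and 3469 lower. Leaving out libraries in turn changed the number called, among the members and over all tested genes. In a further fit both libraries highest in Acta1 and Mylpf were left out. For Myl7, Myl4, Tnnt2 and Ckm these 2 are the highest E18.5 and the lowest P1.5 library, so their removal widens the stage difference by construction and supports no call. The replicate block changed no other call of a member. Same-numbered libraries deviated together with r of 0.23 at E18.5 and 0.21 at P1.5, and shared a sex, but nothing says that they share a litter. Where a group was left with 1 library, that library was assumed to vary like the other groups. Called shared cardiac genes, 4 for stage, were 2 with a pseudocount of 1 RPKM, 1 without a filter, 8 with a mean of at least 0.5 RPKM, 8 with the replicate block, 0 to 9 when libraries were left out and 10 without both. The members' median when libraries were left out ran from 0.14 to 1.04 for genotype at P1.5, from -0.1 to 1.59 for genotype at E18.5, from -1.13 to 0.52 for the difference between stages and from 0.35 to 1.04 for stage. Without both libraries it was -0.1 for genotype at E18.5, 0.2 for the difference and 1.38 for stage. The cause of these changes was not tested.

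Of the members' log2 fold changes, 56 turned sign under an alternative, 623 kept sign and call and 17 came to pass the threshold. With libraries left out, genotype at P1.5 ran from -0.45 to 1.4 for Tnnt2, -1.67 to 0.6 for Acta1, -0.92 to 0.98 for Ckm and -2.11 to 0.06 for Mylpf. Genotype at E18.5 ran from -0.24 to 1.54 for Myl7, -4.72 to 7.81 for Nppa, -0.57 to 1.43 for Myl4, -1.28 to 2.44 for Acta1 and -0.26 to 1.29 for Ckm. The difference between stages ran from -0.79 to 0.99 for Myl7, -4.82 to 7.72 for Nppa, -1.77 to 0.09 for Tnnt2, -0.84 to 1.16 for Myl4, -2.98 to 0.75 for Acta1, -1.44 to 0.46 for Ckm and -1.34 to 0.08 for Tnnt3. Stage ran from -4.62 to 1.65 for Nppa, -1.17 to 0.69 for Acta1, 0 to 0.71 for Tnnt3 and -0.73 to 0.35 for Mylpf. Without both libraries, genotype at P1.5 was -0.45 for Tnnt2, 0.6 for Acta1 and -0.92 for Ckm, genotype at E18.5 was -0.24 for Myl7, -4.72 for Nppa, -0.57 for Myl4, -1.28 for Acta1 and -0.26 for Ckm, the difference was 1.88 for Acta1, and stage was 2.44 for Nppa and 0.13 for Acta1. A pseudocount of 1 RPKM gave -0.04 for Ckm at P1.5 and -0.91 for Nppa in the difference. Quantile normalization gave -0.35 for Myl7 in the difference, and 0.26 for Acta1 and 0.06 for Mylpf for stage, which median centring put at 0.23 and 0.28. Depth limits Nppa most, at 1 read in 3 libraries.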
